A study of Homo sapiens with 2 samples.

Results

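Keratins, claudins and epithelial junction genes were followed here as a set of 10 genes: the keratins KRT7, KRT8, KRT10, KRT18 and KRT19, the claudins CLDN1 and CLDN3, the desmosomal plaque genes DSP and JUP, and the epithelial transcription factor ELF3. They were chosen by gene symbol, with earlier results of these data known. Every probe that the platform annotation assigns to 1 of these symbols was taken. This gave 15 probes of 47323 on the array and 10 genes of 20046 that carry a named probe. The drug-selected A2058 cells were derived from A2058 melanoma cells with carmustine, an alkylating agent. The labels give 100 uM and 6 months. The paper describes repeated cycles of treatment, drug removal and regrowth, with the dose raised in steps up to 100 uM. The parental A2058 cells, the established human melanoma line they came from, were kept in culture alongside. RNA of each was hybridized to 1 Illumina bead array. The drug-selected cells were 1 population of survivors grown up in culture. With 1 array per population, no difference below has a replicate check or a p-value, and precision is limited by that number.

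Keratins are the intermediate filament proteins of epithelial cells. A type II keratin such as KRT8 or KRT7 polymerizes with a type I keratin such as KRT18 or KRT19, and the keratin filaments end at desmosomes, where desmoplakin (DSP) ties them to plakoglobin (JUP) and the desmosomal cadherins. Claudins are the membrane proteins that seal tight junctions, and ELF3 is a transcription factor of the ETS family that is active in epithelia. Melanocytes arise from the neural crest, their main intermediate filament protein is vimentin, and keratins KRT8 and KRT18 are known to appear in some melanomas.

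The 10 genes did not move together. KRT8 and JUP were higher in drug-selected cells, DSP was lower, CLDN1 and KRT10 were well above background on both arrays and within 2-fold, and KRT7, KRT18 and KRT19 stayed at or near background on both arrays. CLDN3 and ELF3 gave weak signals that passed detection on the drug-selected array alone. Higher and lower mean here a fold above 2 or under 0.5 between the normalized signals, the thresholds that the methods of the study use. The methods set them on a ratio of suspended to adherent cells, terms that the sample labels do not use, and how these map to the 2 arrays is not known. The ratio here is drug-selected over parental, as the arrays are labelled.

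The promoters of KRT8, CLDN3, ELF3, JUP and DSP are shown because these are the 5 genes of the set that passed 2-fold, DSP in the opposite direction to the rest. Each run holds the 250 bases before the start site in RefSeq (build GRCh38.p14), 5′ to 3′ on the strand of the gene. Capitals mark exact matches, on either strand, to 3 short motifs: CAGGTG, the E-box that repressors of the ZEB and SNAI families can bind; CGGAAGT, a core of sites for ETS factors; and TATAAA, the TATA box. The KRT8 window is chr12:52926470-52926719 on the minus strand, the CLDN3 window is chr7:73770271-73770520 on the minus strand, the ELF3 window is chr1:202010337-202010586 on the plus strand, the JUP window is chr17:41785977-41786226 on the minus strand, and the DSP window is chr6:7541421-7541670 on the plus strand.

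KRT8: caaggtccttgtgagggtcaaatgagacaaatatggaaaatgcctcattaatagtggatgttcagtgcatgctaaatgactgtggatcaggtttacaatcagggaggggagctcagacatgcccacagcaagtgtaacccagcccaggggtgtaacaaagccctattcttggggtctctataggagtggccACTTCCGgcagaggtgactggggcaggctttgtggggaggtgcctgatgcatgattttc
CLDN3: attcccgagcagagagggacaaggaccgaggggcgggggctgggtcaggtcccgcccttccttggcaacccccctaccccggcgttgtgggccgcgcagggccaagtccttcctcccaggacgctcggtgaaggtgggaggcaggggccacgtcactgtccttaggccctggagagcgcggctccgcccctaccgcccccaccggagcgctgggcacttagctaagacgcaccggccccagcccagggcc
ELF3: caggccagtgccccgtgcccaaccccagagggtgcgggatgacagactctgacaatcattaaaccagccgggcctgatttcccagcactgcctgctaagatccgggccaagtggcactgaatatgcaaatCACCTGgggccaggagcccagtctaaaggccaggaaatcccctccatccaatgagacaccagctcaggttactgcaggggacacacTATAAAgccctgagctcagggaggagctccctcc
JUP: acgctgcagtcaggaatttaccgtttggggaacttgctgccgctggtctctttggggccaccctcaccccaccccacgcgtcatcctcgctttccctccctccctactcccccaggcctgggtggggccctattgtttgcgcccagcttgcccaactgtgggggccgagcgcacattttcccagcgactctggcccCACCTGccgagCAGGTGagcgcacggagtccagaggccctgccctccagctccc
DSP: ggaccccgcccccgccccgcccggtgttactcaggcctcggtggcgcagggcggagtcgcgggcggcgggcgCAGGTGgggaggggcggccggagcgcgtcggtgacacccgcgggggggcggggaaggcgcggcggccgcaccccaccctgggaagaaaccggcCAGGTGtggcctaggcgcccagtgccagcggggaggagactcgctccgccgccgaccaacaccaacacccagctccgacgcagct

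The RefSeq table held a promoter for 7 of the 10 genes, with 2 windows for JUP. KRT8 had 1 ETS core, read on the reverse strand and beginning 59 bases before the start, and it was the 1 gene of the 7 with that motif, which 5.69% of all 35116 promoter windows hold. E-boxes lay in 3 of the 8 windows of these 7 genes, those of ELF3 and DSP and 1 of the 2 of JUP, against 17.5% of all windows. DSP, which was lower, had 2 of them, starting 178 and 85 bases before the start. The second JUP window, which is the one printed, also had 2, in opposite orientations, and the other JUP window had none. ELF3 and KRT10 had a TATA box 34 and 29 bases before the start, a motif found in 10.7% of all windows. The windows of CLDN3 and CLDN1 held none of the 3 motifs. The DSP window was 78.0% GC, the KRT8 window 50.4% GC and the KRT10 window 34.8% GC, with a median of 58.0% over all windows. The windows were taken by gene symbol, and their starts were not matched to the transcripts to which the probes are assigned. These matches are descriptions of letters, and the arrays measured no binding.

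Over the set, 8 of the 10 genes had a probe detected on at least 1 array, at a detection p-value under 0.05 against the negative control beads of that array. So did 12832 of all 20046 genes with a named probe. Of these 8, 4 were higher (KRT8, CLDN3, ELF3 and JUP), 1 was lower (DSP) and 3 were within 2-fold (KRT10, KRT18 and CLDN1). Of all 12832 genes with a detected probe, 7.12% were higher and 5.84% were lower. The median log2 difference of the 8 genes was 0.89. It was 0.60 with minimum folds in place of folds and 0.24 over the 4 that were detected on both arrays. The median of all 12832 genes was -0.003. Because the set was chosen with earlier results of these data known, these shares and medians describe it and test nothing. For a gene detected on 1 array alone, only a minimum fold, or bound, can be stated. The undetected side was then taken at the dimmest detected probe of its array, or at its own signal where that was greater (4.79 on the drug-selected and 4.89 on the parental array for the dimmest detected probe, log2). Such a bound holds for 1 way of making the values, so for genes whose normalized ratio passed 2-fold its lowest value over 7 other ways, chosen after seeing the data, stands beside it. With the bounds of the reported normalization 2 of the 8 genes, KRT8 and JUP, were higher and 1 was lower, against 6.49% and 5.68% of all genes.

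**Figure D1:**
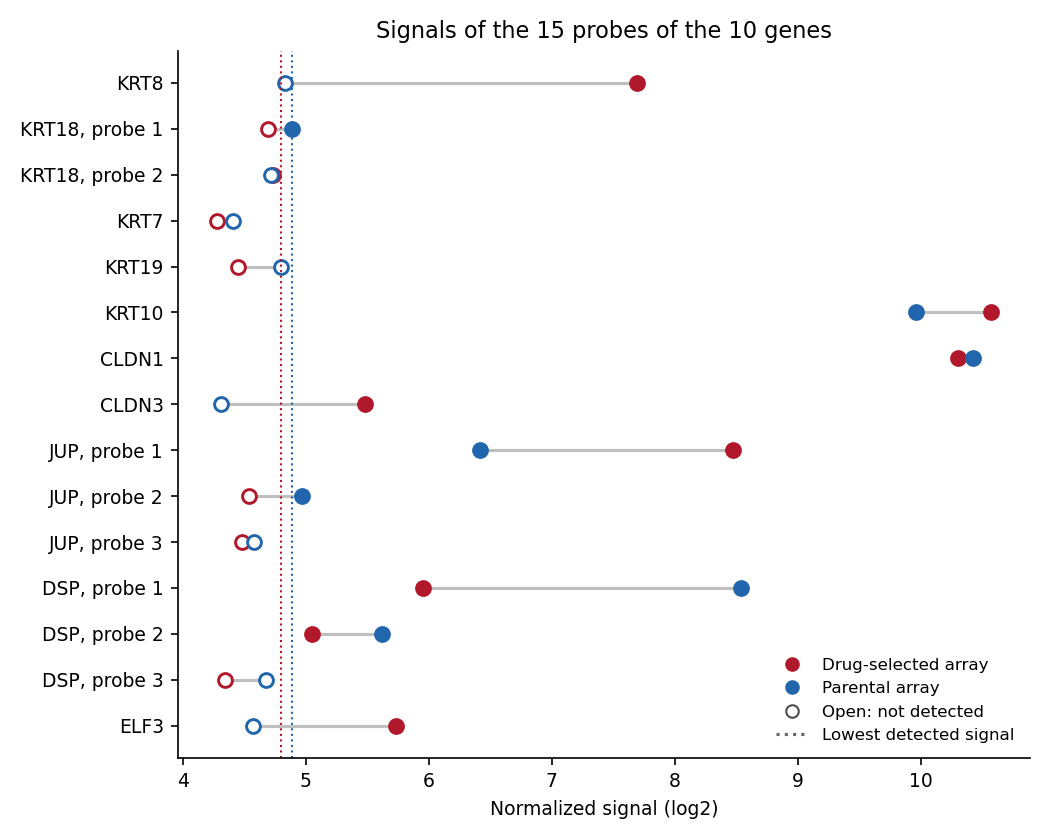
Normalized log2 signal of each of the 15 probes on the drug-selected array (red) and the parental array (blue), 1 array each, with open circles for probes not detected at p under 0.05 and dotted lines at the lowest detected signal of each array. KRT8 and the first JUP probe lie to the right on the drug-selected array, the first DSP probe lies to the right on the parental array, and the probes of KRT7, KRT18 and KRT19 sit at the lines or below them.

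KRT8, the type II keratin of simple epithelia, was higher in drug-selected cells under each of the 7 other ways of making the values. Its single probe had an average signal of 274.3 on the drug-selected array (detection p-value listed as 0) and 55.1 on the parental array (detection p-value of 0.074). The lowest signal that counted as detected was 65.9 on the drug-selected array and 56.4 on the parental array, so KRT8 was well above background in drug-selected cells and, in parental cells, was not. After normalization its log2 signal was 7.69 in drug-selected and 4.83 in parental cells. The bound was 6.95-fold in this normalization and 3.77-fold at its lowest, with an offset of 50 in the background correction. In the normalized intensity deposited by the authors, KRT8 had 248.0 in drug-selected and 61.3 in parental cells.

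KRT18, the type I partner of KRT8 in simple epithelia, showed no such difference. Its first probe had a signal of 62.9 in drug-selected cells (detection p-value of 0.1026) and 56.4 in parental cells (detection p-value of 0.0494), with log2 signals of 4.69 and 4.89. Its second probe, assigned to another RefSeq transcript of the gene, had 64.0 in drug-selected cells (p-value of 0.0831) and 52.8 in parental cells (p-value of 0.1143). Both KRT18 probes were thus under the detection limit on the drug-selected array, where KRT8 was bright, although both genes are direct neighbours on chromosome 12. RefSeq lists 52 pseudogenes of KRT8 and 68 of KRT18 under their symbols, so transcripts of such copies could bind these probes, and their part in the signals was not tested.

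Another type II keratin, KRT7, which marks ducts and glands, had a signal of 44.5 in drug-selected and 43.9 in parental cells, with detection p-values of 0.8558 and 0.5662. KRT19, the smallest type I keratin of simple epithelia, had 54.2 in drug-selected and 54.7 in parental cells, with detection p-values of 0.4429 and 0.0805. Neither keratin was detected on either array, so no fold is given. KRT10, a type I keratin of the upper epidermis, was bright on both arrays, with 1773.2 in drug-selected and 881.3 in parental cells. Its log2 signals were 10.57 in drug-selected and 9.96 in parental cells, a 1.53-fold difference that lay within the threshold.

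CLDN1, a sealing claudin that is also found in some melanomas, had a signal of 1466.0 in drug-selected and 1204.2 in parental cells. After normalization these were 10.30 and 10.42 on the log2 scale, a difference of -0.12. Its sign turned with no normalization and with scaling to the median. CLDN1 was thus well above background on both arrays, with little between them. CLDN3, a claudin of many simple epithelia, had 87.3 in drug-selected cells (detection p-value of 0.0013) and 39.3 in parental cells (p-value of 0.8013). Its log2 signal was 5.48 in drug-selected and 4.31 in parental cells, a 2.24-fold ratio of normalized signals, but the parental value was background, and the bound was 1.5-fold in this normalization and 1.23-fold at its lowest.

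ELF3 resembled CLDN3. Its probe had 97.8 in drug-selected cells (detection p-value of 0.0013) and 49.3 in parental cells (p-value of 0.2545), with log2 signals of 5.73 and 4.57. The ratio of normalized signals was 2.23, and the bound was 1.79-fold in this normalization and 1.37-fold at its lowest. Both ELF3 and CLDN3 passed 2-fold under 6 of 10 alternative settings, and both lay within 2-fold in the authors' normalized values.

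The desmosomal plaque genes DSP and JUP went in opposite directions, each by 1 of its 3 probes. The first JUP probe had a signal of 442.0 in drug-selected and 102.5 in parental cells, with detection p-values of 0 on both arrays. Its log2 signal was 8.47 in drug-selected and 6.42 in parental cells, and it was 4.13-fold higher. JUP, which encodes plakoglobin, serves both desmosomes and adherens junctions. The second JUP probe, assigned to the same transcript, had 57.9 in drug-selected cells (p-value of 0.2636) and 57.8 in parental cells (p-value of 0.0325). The third, assigned to another transcript, had 55.4 and 49.5 and was not detected on either array. When the median over its 2 detected probes stood for the gene, the difference of JUP was 0.81 and within 2-fold.

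The first DSP probe had a signal of 108.1 in drug-selected and 349.9 in parental cells, with detection p-values of 0 on both arrays. Its log2 signal was 5.95 in drug-selected and 8.54 in parental cells, and it was 6.04-fold lower, number 70 from the bottom among 12832 genes. The second DSP probe, assigned to the same transcript, had 73.3 in drug-selected cells (p-value of 0.0091) and 71.9 in parental cells (p-value of 0), which after normalization made 5.05 and 5.62 and a difference of -0.57. The third had 48.7 and 52.0 and was not detected on either array. The 2 detected DSP probes thus lay on the lower side after normalization, and 1 of them passed 2-fold. Before normalization, the signal of the second was slightly greater in drug-selected cells. With the median over its 2 detected probes, the difference of DSP was -1.58. The DSP probes that were detected on both arrays differed from each other by 2.03 on the log2 scale. Across the 2892 genes for which 2 or more probes passed detection on each array, the median of this range was 0.22, and it was at least as large as in DSP in 16 genes, or 0.553%.

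**Figure D2:**
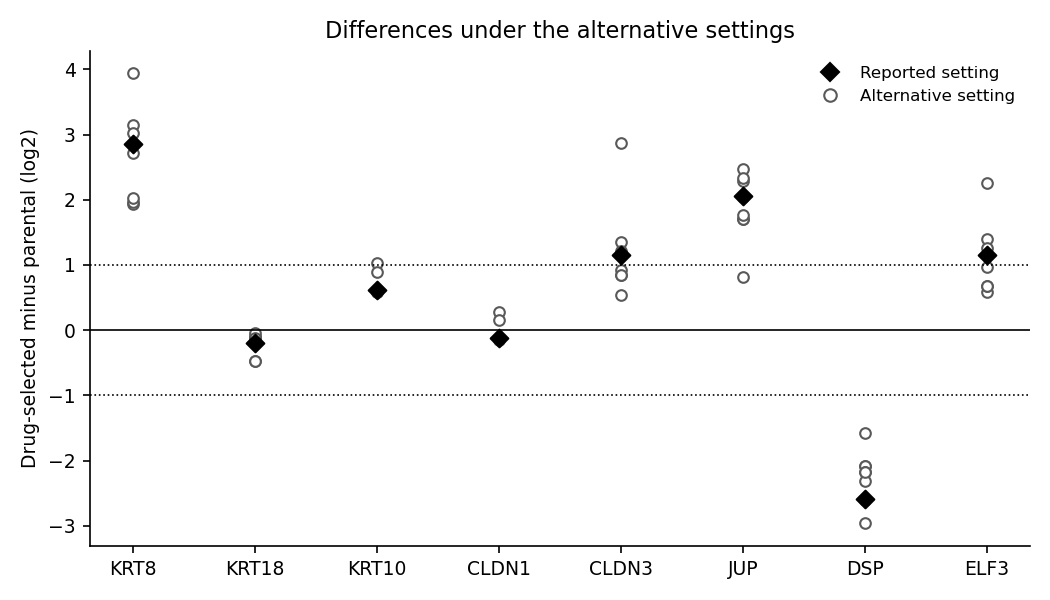
Log2 difference, drug-selected minus parental, of the 8 detected genes under the reported setting (diamonds) and under up to 11 alternative settings (open circles), with dotted lines at 2-fold. KRT8 and DSP lie past 2-fold under every setting drawn, JUP under all but the median over probes (0.81), and CLDN3 and ELF3 lie on both sides of the upper line.

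DSP lies on chromosome 6, and 9 of its 10 nearest detected neighbours also had negative differences, against 50.4% of all genes. Of the 5 nearest detected protein-coding genes on each side, 3 of 10 were lower, against 5.84% of all genes, and none was higher, with a median log2 difference of -0.63. The lower ones were BMP6, a bone morphogenetic protein, by 2.89-fold, RREB1, a zinc finger transcription factor, by 2.53-fold, and SSR1, a subunit of the translocon-associated complex of the endoplasmic reticulum, by 2.15-fold. The next genes on each side of DSP, RIOK1 and SNRNP48, had differences of -0.15 and -0.56. Under 11 alternative settings, chosen after seeing the data, 1 to 4 of these neighbours were lower, with 1 in the authors' normalized values, and their median ran between -0.76 and -0.30. This window was drawn after values of the region were known, and neighbouring genes are not independent of each other. For JUP, 0 of 10 such neighbours passed 2-fold in either direction. For KRT8, 2 of 10 were higher and 0 lower, and 1 of the 2 was another keratin, KRT80. For CLDN3, 2 of 10 were higher and 0 lower, with a median of 0.58 and differences between 0.11 and 1.27. The median was -0.4 around ELF3, with 1 higher, and -0.28 around CLDN1, with 1 lower. Around the keratins and JUP the medians ran between 0.17 and 0.3. Neighbours that lay mostly on 1 side were thus not particular to DSP.

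**Figure D3:**
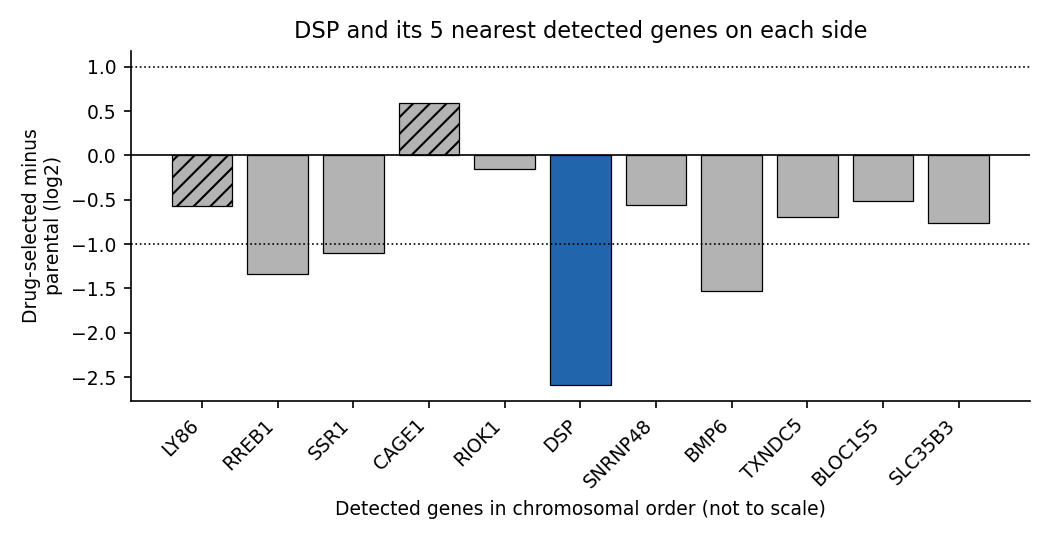
Log2 difference, drug-selected minus parental, of DSP (blue bar) and of its 5 nearest detected protein-coding genes on each side in chromosomal order, with hatched bars for genes detected on 1 array and dotted lines at 2-fold. DSP at -2.59 is the lowest bar, and 9 of the 10 neighbours lie under 0.

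Of 44 other keratin genes with a named probe, 40 were not detected on either array and 1 was higher. KRT80, a type II keratin found in many epithelia, had a signal of 394.8 in drug-selected cells and 51.4 in parental cells, where it did not pass detection. Its bound was 10.5-fold in this normalization and 5.42-fold at its lowest. Its second probe, with 130.0 in drug-selected and 33.9 in parental cells, was likewise detected in drug-selected cells only. The 3 others that were detected, KRT4, KRT12 and KRT27, lay within 2-fold.

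Of 21 other claudins, 9 were detected, 1 was lower and none was higher. CLDN23 was 2.34-fold lower, with signals of 71.6 in drug-selected and 92.9 in parental cells, and it was within 2-fold under 4 of 11 alternative settings. CLDN4, the neighbour of CLDN3 on chromosome 7, had 69.9 in drug-selected cells (detection p-value of 0.0182) and 47.7 in parental cells (p-value of 0.3429), with a bound of 1.03-fold in this normalization.

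Of 15 other desmosome genes, 6 were detected and none passed 2-fold, with a median log2 difference of -0.15. The desmosomal cadherin DSG2 had 666.6 in drug-selected and 759.4 in parental cells, a difference of -0.63, and PERP, a desmosomal membrane protein and p53 target, had 2205.5 in drug-selected and 2480.6 in parental cells, a difference of -0.58. PKP1, PKP2 and PKP3, the plakophilins that bind DSP, were not detected on either array, and PKP4 differed by -0.22. Of 13 adherens junction genes with a probe, 9 were detected and none passed 2-fold. CDH1, which encodes E-cadherin, was not detected, with p-values of 0.7013 in drug-selected and 0.7286 in parental cells, while N-cadherin (CDH2) had 7281.6 in drug-selected and 3558.4 in parental cells, a 1.56-fold difference. CTNNB1, the close relative of JUP that encodes beta-catenin, had a difference of -0.84 by the brightest of its 7 probes. JUP had 2.05 by 1 of its 3 probes, and 0.81 with the median over its detected probes. The other detected CTNNB1 probes ran between -1.12, on both arrays, and 0.24, for a probe detected in drug-selected cells only.

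Of 17 other tight junction genes with a probe, 12 were detected, 1 was higher and 2 were lower. The junctional adhesion molecule JAM3, undetected in parental cells, was higher with a bound of 4.0-fold in this normalization and 2.40-fold at its lowest. CXADR, the coxsackievirus and adenovirus receptor of tight junctions, was 2.44-fold lower and TJAP1 was 2.07-fold lower. Of the 7 other ways of making the values, TJAP1 passed 2-fold only with an offset of 0 and with scaling to the 75th percentile. The tight junction protein occludin (OCLN) was not detected on either array by either probe, and the scaffold TJP1 differed by -0.24. Of 6 hemidesmosome genes with a probe, all were detected and 2 were higher. LAMB3, a chain of laminin-332, was 6.50-fold higher by 1 of its 3 probes, and ITGB4, the integrin subunit to which keratin filaments are tied through plectin, was higher with 2 of its 4 probes detected, in drug-selected cells only, and a bound of 3.30-fold in this normalization and 2.07-fold at its lowest. Of 7 detected gap junction genes, 1 was lower, the connexin GJB2 by 3.91-fold.

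**Figure D4:**
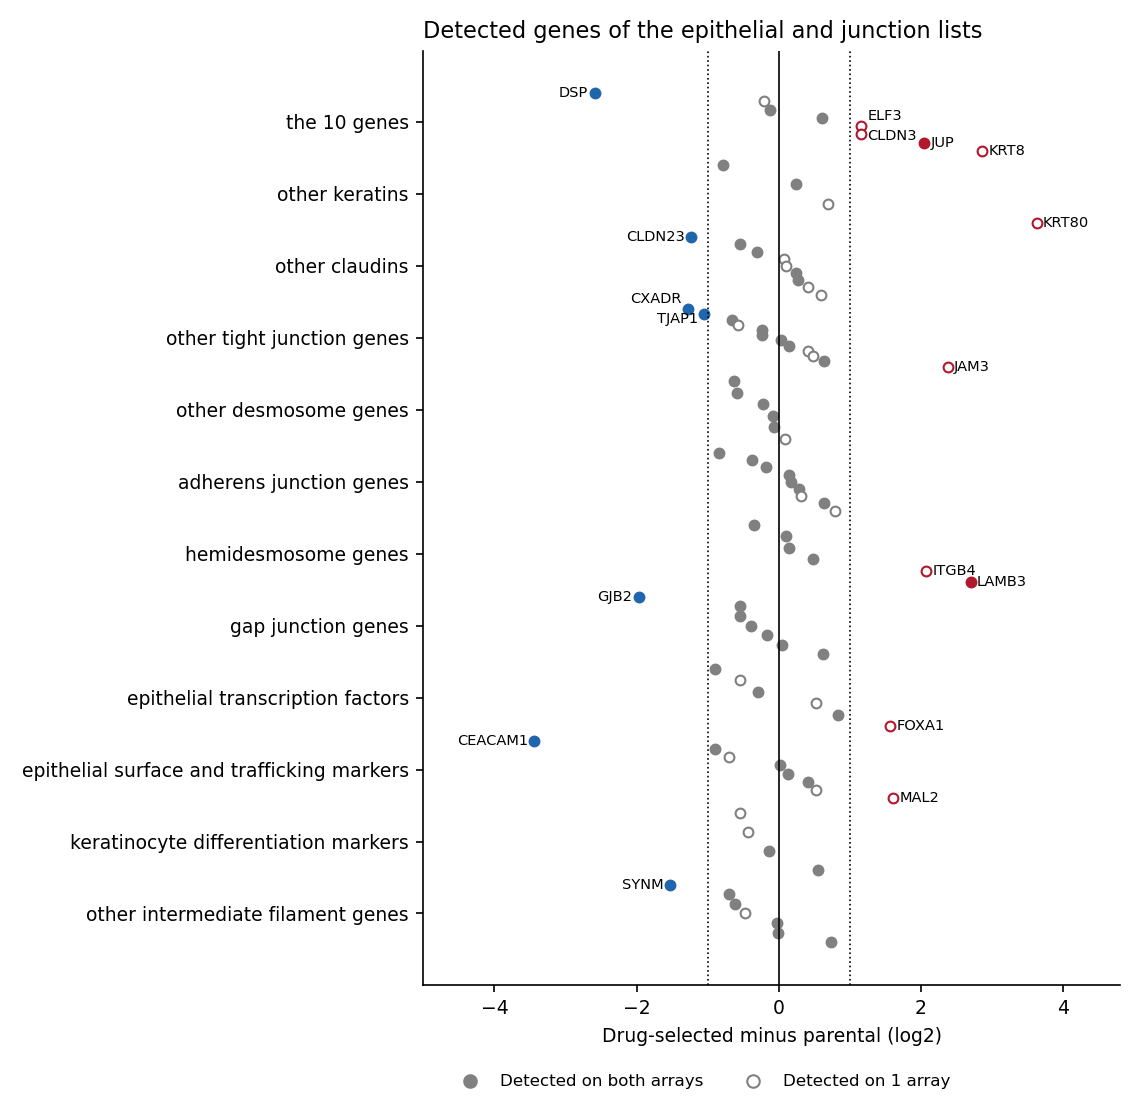
Log2 difference, drug-selected minus parental, of the detected genes in the set of 10 (top row) and in 11 lists of epithelial, junction and filament genes, with filled circles for genes detected on both arrays, open circles for those detected on 1 array, dotted lines at 2-fold and names for the genes past them. The lists hold genes past 2-fold on both sides, and the desmosome, adherens junction and keratinocyte lists hold none.

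Epithelial regulators and surface markers were for the most part not detected, while 12832 of all 20046 genes with a named probe were. Of 14 other epithelial transcription factors with a probe, 6 were detected and 1 was higher, the pioneer factor FOXA1. FOXA1 was not detected in parental cells, and its bound was 2.05-fold in this normalization and 1.49-fold at its lowest, past 2-fold in 3 of 7 other ways of making the values. EHF, a relative of ELF3, had 73.2 in drug-selected cells (detection p-value of 0.0091) and 48.0 in parental cells (p-value of 0.3156), with a bound of 1.11-fold in this normalization. Of 18 surface and trafficking markers with a probe, 8 were detected, and CEACAM1, a cell adhesion molecule that melanomas also express, was 10.8-fold lower, with 3 probes between -3.49 and -3.44 on the log2 scale. MAL2, a transcytosis protein, had a normalized ratio of 3.04 and a bound of 1.91-fold in this normalization and 1.42-fold at its lowest. The summed normalized signal of the 32 probes of that list was 2633.8 on the drug-selected and 7727.5 on the parental array, and without the 3 CEACAM1 probes it was 2186.7 and 2834.8. The median log2 difference of its 8 detected genes was 0.08. Of 14 keratinocyte markers, 4 were detected and none passed 2-fold, KRT5 and KRT14 were not detected on either array, and the summed normalized signal was 448.1 on the drug-selected and 427.4 on the parental array. Vimentin (VIM), a filament gene of mesenchymal and neural crest-derived cells, had 17679.7 in drug-selected and 13434.8 in parental cells and a normalized difference of -0.02. Of 7 detected filament genes outside the keratins, 1 was lower, SYNM, which encodes synemin, by 2.88-fold.

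Melanocyte markers were lower on the array on which KRT8 and JUP were higher. Of 9 detected, 6 were lower and none was higher, and the summed normalized signal of the 18 probes of the list was 6097.9 on the drug-selected and 48826.3 on the parental array. The melanin enzyme tyrosinase (TYR) had a signal of 69.0 in drug-selected cells, near background with a detection p-value of 0.0208, and 7820.8 in parental cells. Its log2 difference was -8.25 and ran between -9.34 and -7.16 under the alternative settings. The melanoma antigen MLANA was 27.7-fold lower and the melanosome protein PMEL 13.2-fold. The melanocyte factor SOX10 was detected on both arrays with 1683.7 in drug-selected and 2355.5 in parental cells, and S100B was not detected on either. The endothelial list had 2 higher genes among 3 detected, PECAM1 (2.41-fold) and TEK (a bound of 5.74-fold in this normalization and 3.21-fold at its lowest). PECAM1 was within 2-fold with an offset of 50, with no background correction and in the authors' normalized values. VWF differed by -0.20, and CDH5 and KDR were not detected on either array. The summed normalized signal of the list was 482.3 in drug-selected and 159.5 in parental cells, and 152.2 and 115.0 without the 2 TEK probes. Of 3 detected leukocyte markers 1 was higher, LYZ, and 0 with bounds, with sums of 3137.6 in drug-selected and 2101.7 in parental cells. The bound of LYZ was 1.9-fold in this normalization and 1.42-fold at its lowest. The second LYZ probe was detected in parental cells only, with a difference of -0.15. The part of these genes in the values of the 10 was not tested, and more cells that express KRT8 cannot be told apart from more KRT8 RNA per cell in bulk RNA.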

How the data were processed

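Gene expression was measured on Illumina HumanHT-12 v4 bead arrays, 1 for drug-selected and 1 for parental A2058 cells. The table that the authors deposited without normalization gives the linear intensity averaged over the beads of a probe. Beside it the authors deposited a detection p-value, which sets the probe against negative control beads. The methods name a background subtraction, but the lowest intensity was 30.5 on the drug-selected and 25.7 on the parental array. A second table that the authors deposited holds normalized intensity values, with the method not given in the sources used here. The drug-selected array was brighter, with a median signal of 63.1 against 52.5, and 45.6% and 42.5% of probes were detected.

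Intensities were corrected with limma 3.58.1 in R 4.3.3 (normexp, with control bead statistics estimated through the detection values, offset 16), then quantile normalized and converted to log2. The correction determines how large the folds of dim probes are, and normalization how many genes lie on each side. The 23307 probes that passed a detection p of 0.05 on either array were kept, and the brightest kept probe stood for a gene. The platform annotation gave 1 symbol for 30113 probes, and 30074 of these matched RefSeq of GRCh38.p14 by gene identifier. No test was run across genes, since each group has 1 array. Steps were tested on simulated data. Besides the 10 genes and all their probes, the genes named are those of 14 lists with the largest differences past 2-fold, at most 3 in each direction; other list genes and the neighbours of DSP were named after their values were seen. The members and lists were chosen with earlier results of these data known. The alternatives were other offsets (50 and 0), no background correction, no normalization, scaling to the 75th percentile or the median, the authors' values, other detection filters, other fold thresholds and the median over probes. For a gene with 1 probe, the detection filters and the median over probes can only keep its reported value or drop it. Protein sequences were not used here. Python 3.11.15 with numpy 2.4.6, pandas 2.3.3 and matplotlib 3.10.9 was used.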

Additional observations from a re-analysis of the deposited data

How the results depend on the processing

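No paired analysis was possible because there was 1 array per group, and for the same reason no replicate could be left out. DSP was the 1 lower member under all 13 alternatives. The reported 4 higher members were 2 (KRT8 and JUP) with an offset of 50, with no background correction, with scaling to the 75th percentile, in the authors' normalized values and at a 3-fold threshold, and 1 (JUP) when detection on both arrays was required, which leaves 4 members. With no normalization and at 1.5-fold KRT10 joined them, and with the median over probes JUP was lost. CLDN3 ranged from 0.54 to 2.87 and ELF3 from 0.59 to 2.25 on the log2 scale, at offsets of 50 and 0. Of all genes, 914 were higher and 749 lower. Higher and lower counts were 1501 and 1337 with an offset of 0, 1817 and 341 with no normalization (84.2% higher), 1402 and 434 with scaling to the median (76.4%), against 55.0% as reported, 1970 and 2037 at 1.5-fold and 454 and 226 at 3-fold. The lower count was 472 with an offset of 50 and 480 with no background correction. The median of all genes moved to 0.371 with no normalization and 0.235 with scaling to the median. Beyond these, 257 values of single genes, their bounds and the DSP neighbour count stayed within 0.304 on the log2 scale (the SD between probes of a gene) or 1.5 times the reported count, and 126 moved further. The 257 include all gene differences under the detection filters, which only repeated the reported values. They also include those of genes with 1 probe under the median over probes, which could not move. None of the members and list genes recomputed that lay past 2-fold turned its sign. Signals near background limit KRT7, KRT18, KRT19, CLDN3 and ELF3.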
